A study of Mus musculus with 4 samples.

Results

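The genes described here encode proteins of the nucleolus and of ribosome assembly, chosen by name as a list of 48, and 37 of them had at least 1 cDNA clone on the arrays, of 14064 features in all. Nucleophosmin (Npm1) itself was not part of the list. A gene with several clones was represented by the clone with the highest mean over all 4 arrays. The 37 genes came from 11 of 13 listed factors of large-subunit assembly, 9 of 14 of small-subunit assembly, 9 of 11 proteins of small nucleolar ribonucleoproteins and their partners, and 8 of 10 listed with RNA polymerase I. Nop10, Dkc1, Rrn3, Taf1b, Nop14, Utp14a, Utp18, Tsr1, Tsr2, Gnl2 and Gnl3l were not measured here.

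The study used C2C12, an established line of mouse myoblasts kept proliferating in serum-containing medium. One group of cells had been transfected with siRNA directed at HuR, an RNA-binding protein encoded by Elavl1, and the other with a control siRNA, with 2 arrays each (HuR siRNA replicates 1 and 2, control siRNA replicates 1 and 2). The comparison asks which transcripts differ when HuR is targeted, and the series title ties HuR to the stability of the nucleophosmin mRNA. Whether the arrays of a group stand for different cultures is not in the labels. The p-values therefore measure only the spread between arrays, which may be technical. The siRNA sequences and the time after transfection were not used here.

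Ribosomes are built in the nucleolus, where RNA polymerase I transcribes the ribosomal RNA precursor. Small nucleolar ribonucleoproteins guide the methylation and pseudouridylation of that precursor, and separate sets of assembly factors then cut, fold and package it with ribosomal proteins into the small and the large subunit. Growing cells spend much of their energy on this pathway, and myoblasts reduce it when they leave the cell cycle to form muscle fibres.

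Values are z-scores, where 1 unit is 1 standard deviation (SD) of all spots in a section of the array, and each array has 2 sections. A difference is the mean of the HuR siRNA arrays minus the mean of the control arrays in these units, and it is not a fold change. Scores of different clones are not read as levels of their genes, because clones differ in length and labelling. They served to choose the clone of a gene, to place a spot within its section and to leave out dim features. In RNA from whole cultures, fewer cells of a type and less RNA per cell cannot be told apart. Of 9 myoblast markers only vimentin (Vim) had a clone, so the cell type could not be checked against Myod1, Myf5 or desmin, and 4 of 14 listed markers of other cell types were measured. The endothelial cadherin Cdh5 was at -1.28 and -1.59 on the HuR siRNA arrays, against -1.25 and -1.05 on the control arrays, with both HuR siRNA values below both control values (difference -0.285, SE 0.131, limma adjusted p = 0.991). Csf1r, Pecam1 and Tubb3 overlapped between the groups and differed by -0.05, -0.08 and 0. Vim overlapped too, at 0.62 and 0.64 on the HuR siRNA arrays, against 0.57 and 0.64 on the control arrays (difference 0.025, SE 0.0455). The part of other cell types in the differences below was not tested.

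The targeted gene was not measurably lower on the arrays labelled HuR siRNA. Elavl1 was at -0.2 and -0.21 on the HuR siRNA arrays, against -0.12 and -0.2 on the control arrays. The groups touched at -0.2, and the difference was -0.045 (SE 0.047, limma adjusted p = 0.991). It was -0.11 after removal of grid medians and -0.0075 with the clones of Elavl1 averaged. The deposited table carries NPM in its name, whereas its columns and the sample titles name HuR, so "HuR siRNA" below means the arrays labelled so. Npm1 was at 0.23 and 0.4 on the HuR siRNA arrays, against -0.07 and 0.04 on the control arrays, and this separation did not pass the threshold either (difference 0.33, SE 0.0789, limma adjusted p = 0.991).

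No nucleolar gene passed the test. Of the 37 genes 22 lay higher with HuR siRNA, 12 lay lower and 3 had a difference of 0. Most of these differences were smaller than the larger gap between arrays of the same siRNA, a share that was not computed over all features. The median difference was 0.015, beside 0 over all features. Over all features 49.7% had a difference above 0 and 46.8% one below 0. The genes that stood furthest above the control arrays were Surf6 (difference 0.35), a nucleolar protein needed for ribosomal RNA processing, and Rrs1 (0.195), a factor that brings the 5S ribosomal RNA particle into the large subunit.

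The test was limma's moderated test over all features with Benjamini-Hochberg adjustment and a threshold of 0.05 on the adjusted p, which 0 of the 37 genes and 0% of all features passed. At an unadjusted p under 0.05 stood 1 of the 37 genes, Surf6, beside 3.75% of all features. In 3 genes both HuR siRNA values lay above both control values, beside 13.6% of all features, and in 3 genes both lay below, beside 13.7% of all features. Each of these counts is 8.11% of the 37 genes, under the share over all features, but this order depended on the normalization. The share above was 16.2% with quantile normalization, beside 14.9% of all features, and 16.2% with source plate medians removed, beside 13.8%. The share below was 21.6% with source plate medians removed, beside 16% of all features. A difference of at least 2 standard errors was reached by 2 genes, beside 9.14% of all features.

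**Figure D1:**
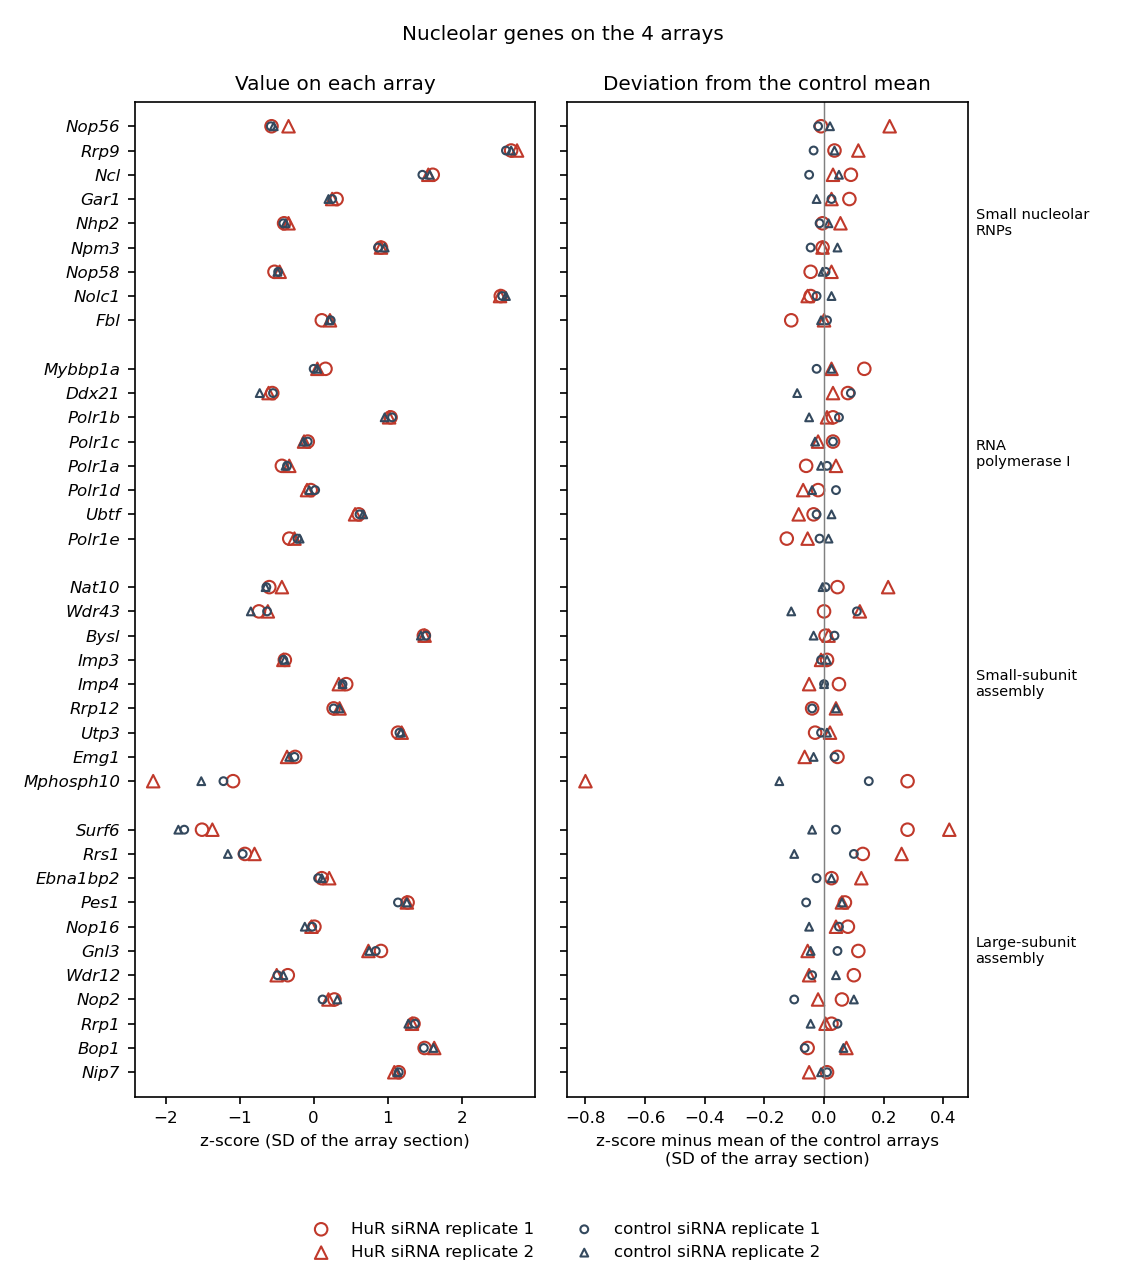
Values of the 37 nucleolar genes on the 4 arrays, 1 row per gene, grouped by role. The left panel gives the z-score (units of 1 SD of the array section) and the right panel the same score minus the mean of the control arrays; red marks are HuR siRNA arrays, dark marks control siRNA arrays, circles replicate 1 and triangles replicate 2. The larger of the 2 gaps between marks of the same colour is 0.1 at the median of the genes. Surf6 has both red marks to the right of both dark ones, and Mphosph10 has 1 HuR siRNA array far to the left, at -2.17.

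The number of arrays limited the precision. The 95% interval of a difference had a median half-width of 0.143 over the 37 genes, from 0.106 to 1.04. For 30 genes the whole interval lay between -0.25 and 0.25, so that a difference beyond 0.25 in either direction lay outside it. Few features differed by that much, since 1.61% of all features lay at or below -0.25 and 98.7% at or below 0.25. Smaller differences are not excluded by these intervals. The interval left out 0 for 1 gene, Surf6. The difference was larger than both within-group gaps in 3 genes, Surf6, Polr1e and Ubtf, and the median of the larger gap was 0.1. The share of all features with such a difference was not computed, so this count is not read as a trait of the nucleolar genes.

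Of 11 measured factors of large-subunit assembly 10 lay higher with HuR siRNA and 1 lay lower, with a median of 0.03, beside 49.7% of all features above 0. The sign changed under at least 1 alternative processing in 7 of the 11 (Nop2, Rrp1, Bop1, Pes1, Wdr12, Gnl3 and Nip7), and the clones of 7 lay in the first section of the array, where most clones of the nucleolar genes were higher. In 2 of the 11 (18.2%), Surf6 and Rrs1, both HuR siRNA values lay above both control values, beside 13.6% of all features. Of the 11, 0 passed the threshold. The other 9 genes had differences from -0.02 to 0.075, each under 2 standard errors. Among them Rrp1, Bop1, Pes1 and Wdr12, whose clones lay in the second section of the array, differed by 0.01 to 0.065.

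Surf6 (gene ID 20935) was at -1.51 and -1.37 on the HuR siRNA arrays, against -1.75 and -1.83 on the control arrays. Both HuR siRNA arrays were higher than both control arrays, and the gap between arrays of a group was at most 0.14. This gave a difference of 0.35 (SE 0.0669, with 0.169 to 0.531 as its 95% interval, unadjusted p = 0.00522, limma adjusted p = 0.991). The spot was a dim one, in the lowest 2.19% of its section by mean score. The difference was 0.318 after the median of its grid, as numbered in the deposit, had been removed on each array and 0.345 after that of its source plate.

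Rrs1 was at -0.93 and -0.8 on the HuR siRNA arrays, against -0.96 and -1.16 on the control arrays. The closest arrays of the groups lay 0.03 apart, less than the 0.2 between the control arrays. Rrs1 thus differed by 0.195 (SE 0.0899, 95% interval -0.0478 to 0.438), and its spot lay at percentile 11.4 of its section. The difference of Rrs1 was 0.095 without control siRNA replicate 2 and 0.13 without HuR siRNA replicate 2, and 0.295 without control siRNA replicate 1.

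The remaining large-subunit factors included the members of the PeBoW complex, which processes the precursor of the large-subunit RNA. Pes1 differed by 0.065 (SE 0.0561), with its other clones at 0.015 and -0.06, Wdr12 by 0.025 (SE 0.0694) and Bop1 by 0.01 (SE 0.0734). Bop1 was at 1.5 and 1.63 on the HuR siRNA arrays, against 1.49 and 1.62 on the control arrays, so its replicates differed by 0.13 in both groups while the groups agreed within 0.01. Ebna1bp2, a scaffold of early large-subunit particles, differed by 0.075, and Nop16 by 0.06. The GTPase nucleostemin (Gnl3) was at 0.03, with a second clone at 0, the RNA methyltransferase Nop2 at 0.02, Rrp1 at 0.015 and the late assembly factor Nip7 at -0.02.

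Small-subunit factors centred on 0. Of 9 measured genes 3 lay higher, 3 lay lower and 3 had a difference of 0, with a median of 0. In 1 gene (11.1%), Nat10, both HuR siRNA values lay above both control values, beside 13.6% of all features. None of the 9 had an unadjusted p under 0.05, beside 3.75% of all features.

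Nat10, the acetyltransferase that modifies cytidines of the small-subunit RNA, was at -0.6 and -0.43 on the HuR siRNA arrays, against -0.64 and -0.65 on the control arrays. Replicate 1 of HuR siRNA stood 0.04 above the nearer control array and replicate 2 stood further off. Nat10 differed by 0.13 (SE 0.0695, 95% interval -0.0578 to 0.318), with the spot at percentile 30.2 of its section. Without HuR siRNA replicate 2 the difference of Nat10 was 0.045.

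Mphosph10, a component of the particle that binds the U3 small nucleolar RNA, was at -1.09 and -2.17 on the HuR siRNA arrays, against -1.22 and -1.52 on the control arrays. The 2 HuR siRNA arrays lay on either side of the control arrays and 1.08 apart, the widest gap among the 37 genes. Its difference of -0.26 (SE 0.384, 95% interval -1.3 to 0.778) was the lowest of the list, and without HuR siRNA replicate 2 it was 0.28. It was singled out after its values had been seen, and its spot lay in the lowest 4.78% of its section.

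Imp3 and Imp4, partners of Mphosph10 in that particle, both had a difference of 0. Imp3 was at -0.39 and -0.41 on the HuR siRNA arrays, against -0.41 and -0.39 on the control arrays, and its 95% interval of -0.106 to 0.106 was the narrowest of the 37. Rrp12, an export factor matched through an older symbol, gave 0.27 and 0.35 in both groups. The scaffold proteins Wdr43 (0.06), Utp3 (-0.005) and the late factor Bysl (0.01) differed by less than their SE of 0.0936, 0.0424 and 0.0451. The methyltransferase Emg1 was at -0.01.

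**Figure D2:**
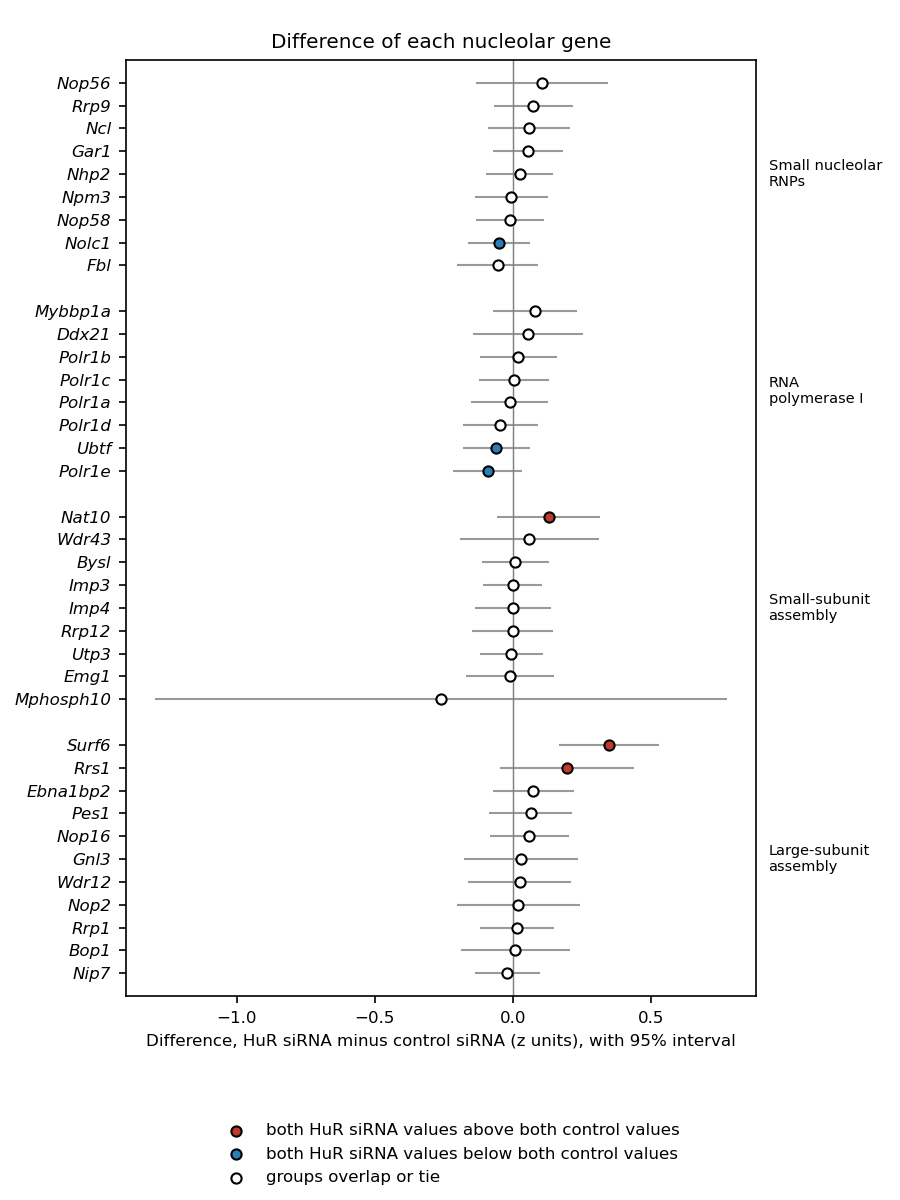
Difference between HuR siRNA and control siRNA for each of the 37 nucleolar genes in z units (points), with limma's 95% interval (bars), grouped by role and ordered by size. Red points are the 3 genes with both HuR siRNA values above both control values, blue points the 3 genes with both below; the interval leaves out 0 for Surf6 alone.

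The RNA polymerase I group was evenly split, with 4 of 8 genes higher and 4 lower and a median of -0.0025. In 2 genes, Polr1e and Ubtf, both HuR siRNA values lay below both control values, beside 13.7% of all features. None had an unadjusted p under 0.05.

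Polr1e, the polymerase subunit also called PAF53, was at -0.33 and -0.26 on the HuR siRNA arrays, against -0.22 and -0.19 on the control arrays. The groups lay 0.04 apart, while the HuR siRNA arrays differed by 0.07 between themselves. Polr1e differed by -0.09 (SE 0.0462, 95% interval -0.215 to 0.0347), and it was -0.0525 after removal of grid medians. The second Polr1e clone differed by -0.015 (SE 0.0503).

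Ubtf, the factor that binds the ribosomal DNA and recruits the polymerase, was at 0.61 and 0.56 on the HuR siRNA arrays, against 0.62 and 0.67 on the control arrays. The nearest arrays of the groups were 0.01 apart, which is the resolution of the deposited scores. The difference was -0.06 (SE 0.0451), or -0.0275 after removal of grid medians.

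Of the catalytic core, the largest subunit gene Polr1a was at -0.01 (SE 0.0516) and Polr1b at 0.02 (SE 0.0516). Polr1c and Polr1d encode subunits shared with RNA polymerase III and were at 0.005 and -0.045. A further clone annotated to both Polr1c and the ribosomal protein gene Rps28 was left out because its identifiers disagreed, and it differed by -0.145. Mybbp1a, a nucleolar binding partner of transcription factors, was at 0.08 (SE 0.0562) and at 0.005 after removal of source plate medians. The RNA helicase Ddx21 was at 0.055 (SE 0.0743).

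Proteins of small nucleolar ribonucleoproteins and their partners had 5 of 9 genes higher and 4 lower, with a median of 0.025. In 1 of them (11.1%), Nolc1, both HuR siRNA values lay below both control values, beside 13.7% of all features. Nolc1, which escorts these particles between the Cajal body and the nucleolus, was at 2.53 and 2.52 on the HuR siRNA arrays, against 2.55 and 2.6 on the control arrays. The groups were 0.02 apart and the control arrays 0.05, and the difference was -0.05 (SE 0.0419).

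Of the box C/D core proteins, Nop56 differed by 0.105 (SE 0.0883), Nop58 by -0.01 (SE 0.0451) and the methyltransferase fibrillarin (Fbl) by -0.055 (SE 0.0539). Nop56 was at -0.57 and -0.34 on the HuR siRNA arrays, against -0.58 and -0.54 on the control arrays, so that 1 array carried its difference, which was -0.01 without HuR siRNA replicate 2. Of the box H/ACA core, Gar1 was at 0.055 and Nhp2 at 0.025. Rrp9, a protein of the U3 particle, differed by 0.075 (SE 0.0526). It was matched by RefSeq accession only.

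Nucleolin (Ncl), an abundant nucleolar RNA-binding protein, was at 1.61 and 1.55 on the HuR siRNA arrays, against 1.47 and 1.57 on the control arrays. The groups overlapped, and the difference was 0.06 (SE 0.0551). Npm3, a nucleoplasmin-family protein related to nucleophosmin, was at 0.91 on both HuR siRNA arrays, against 0.87 and 0.96 on the control arrays. Its difference of -0.005 (SE 0.049) contrasts with the 0.33 of Npm1, and the gap between these genes was not tested.

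**Figure D3:**
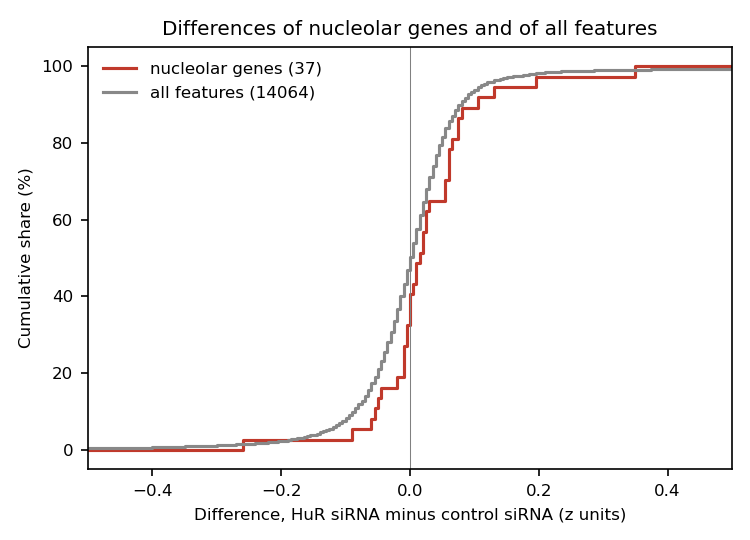
Cumulative share (%) of features at or below each difference between HuR siRNA and control siRNA (z units), for the 37 nucleolar genes (red) and all 14064 features (grey); the axis is limited to -0.5 to 0.5. The red curve lies slightly to the right over most of the range, with medians of 0.015 and 0.

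Several clones of the same gene gave a second look at 11 genes, with 27 clones between them. All clones of a gene pointed the same way in 2 of the 11, Bysl (3 clones higher) and Polr1e (2 clones lower). In the other 9 the clones differed in sign or included a 0. The spread between clones of a gene was 0.11 at the median, from 0.03 to 0.22. By comparison, the median size of the difference over the 37 genes was 0.045.

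The 4 clones of nucleolin show the spread between clones of a gene. The chosen clone was at 0.06, and 2 others differed by 0.13 (SE 0.0543) and 0.12 (SE 0.0586), each with both HuR siRNA values above both control values. The first of these was at -0.01 and -0.12 on the HuR siRNA arrays, against -0.19 and -0.2 on the control arrays. The fourth clone went the other way, with -1 and -1.05 on the HuR siRNA arrays, against -0.96 and -0.91 on the control arrays (difference -0.09, SE 0.0461).

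Of the 16 clones that were not chosen, 10 lay higher, 5 lay lower and 1 was at 0. In 7 of them both HuR siRNA values lay above both control values and in 2 both lay below, beside 13.9% and 13.7% of all clones. The 7 were 2 clones each of Ncl and Bysl and 1 each of Nip7, Nolc1 and Nop58. The Nolc1 clone was at -0.28 and -0.26 on the HuR siRNA arrays, against -0.36 and -0.4 on the control arrays, a difference of 0.11 (SE 0.0421) where the chosen clone gave -0.05. The other Nop58 clone differed by 0.1 and the other Nip7 clone by 0.095, against -0.01 and -0.02 on the chosen clones.

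The side on which a clone fell went with the section of the array that carried it. In the first section 26 of 33 clones of these genes lay higher and 6 lower, with a median of 0.06, beside 51.3% of that section's clones above 0. In the second section 6 of 20 lay higher and 11 lower, with a median of -0.0075, beside 48% above 0. All 10 clones with both HuR siRNA values above both control values were in the first section (10 of 33, beside 15.7% of its clones), and in the second section there were 0 of 20, beside 12%.

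The same held within genes. Of the 8 genes with clones in both sections, all 8 had the higher mean difference in the first section, by 0.0925 at the median. Over all 1031 genes with clones in both sections 53.9% did, with a median of 0.01. Ncl averaged 0.103 in the first section and -0.09 in the second, Nop58 0.1 and -0.01, and Fbl 0.04 and -0.055. On the chosen clones the 22 genes of the first section had a median of 0.055 and the 15 genes of the second one of -0.005. Surf6, Rrs1 and Nat10 all lay in the first section. This split by section was looked at after the values had been seen, and its part in the differences was not tested.

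**Figure D4:**
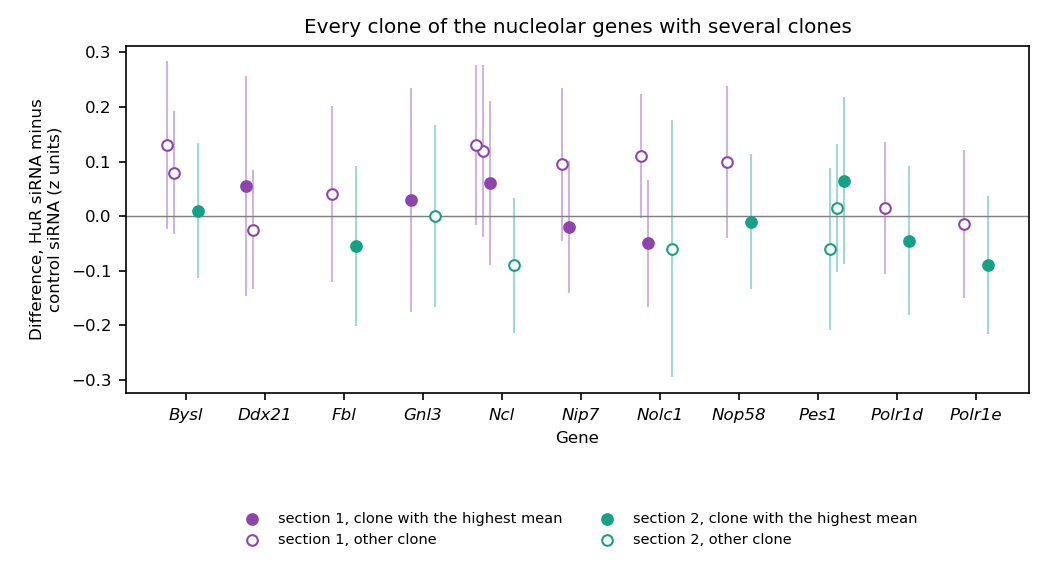
Difference between HuR siRNA and control siRNA in z units for each of the 27 clones of the 11 nucleolar genes with several clones (points, with limma's 95% interval as bars). Purple marks clones of the first array section and green those of the second; filled points are the clones with the highest mean. In the 8 genes with both colours the mean of the purple points lies above that of the green points.

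Other genes of the pathway were counted as a list. Of 125 further genes of ribosome assembly, RNA polymerase I and the RNA exosome, 93 had a clone, and 50 lay higher, 37 lower and 6 at 0, with a median of 0.005. In 14 both HuR siRNA values lay above both control values and in 11 both lay below, which is 15.1% and 11.8% of the 93, beside 13.6% and 13.7% of all features. None passed the threshold, and 1 had an unadjusted p under 0.05, beside 3.75% of all features. This was Rbm28, a nucleolar RNA-binding protein, at 2.19 and 2.27 on the HuR siRNA arrays, against 2.06 and 2.1 on the control arrays (difference 0.15, SE 0.0489, limma adjusted p = 0.991).

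The 37 genes took similar positions on every array. Pearson's r across the 37 genes, which are not independent replicates, was 0.98 between the HuR siRNA arrays, 0.996 between the control arrays, and 0.982 to 0.997 between arrays of different siRNAs. Without Mphosph10 it was 0.995 between the HuR siRNA arrays, 0.996 between the control arrays, and 0.994 to 0.997 between arrays of different siRNAs.

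The promoters of these genes were compared with those of other genes, as a description. Windows from 250 bases before to 50 bases after the transcription start were available from RefSeq (GRCm38.p6) for 42 of the 48 genes, the exceptions being Fbl, Rrp12, Rrs1, Bop1, Gnl2 and Gnl3l. The E-box CACGTG, the site of the Myc family that drives growth genes, was in 9 of the 42 (21.4%), beside 8.91% of 17491 protein-coding genes and 8.09% of all 27025 genes. The motif CCGGAAG of ETS-family factors was in 16 (38.1%), beside 12.9% and 9.93%. The GC box GGGCGG was in 27 (64.3%), beside 49.2% and 38.2%, and TATAAA in 2 (4.76%), beside 14.8% and 15.7%. Both strands were searched, a gene counted once if any of its windows held the motif, and in 2 of the 49 windows different motifs overlapped.

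**Figure D5:**
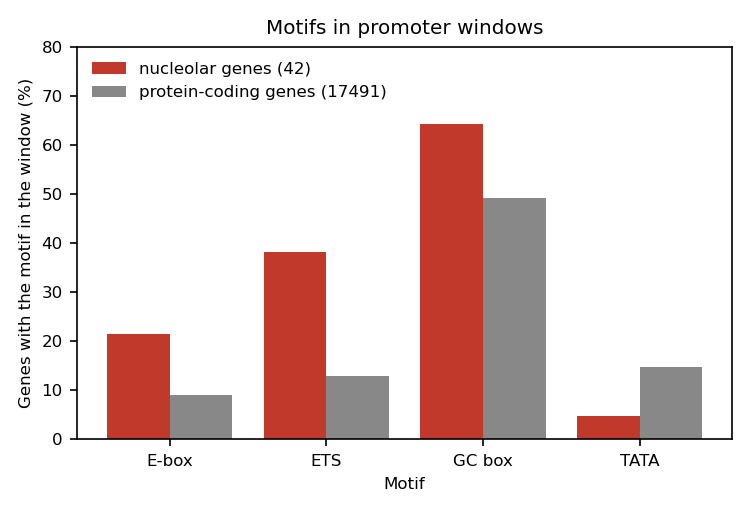
Share of genes (%) with each of 4 motifs in a 300-base promoter window, for the 42 nucleolar genes with a window (red) and 17491 protein-coding genes (grey). The ETS motif stands at 38.1% of nucleolar genes and 12.9% of protein-coding genes, and the TATA motif at 4.76% and 14.8%.

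The differences were then set against these motifs. The 5 measured genes with an E-box had a median of 0.06, with 4 higher and 0 lower, and the 28 without one had a median of 0.0125, with 16 higher and 11 lower. The 12 with the ETS motif had a median of 0, with 6 higher and 6 lower, against 0.025 for the 21 without it. Over all features 49.7% lay above 0. The signs of the E-box genes depended on the processing. With grid medians removed Wdr43 was at -0.01 and Pes1 at -0.025, and with source plate medians removed Nop2 was at -0.0225 and Mybbp1a at 0.005. Of the genes with an E-box, Mybbp1a, Imp4, Wdr43 and Nop2 had their clone in the first section, whose 22 genes had a median of 0.055. The part of motif or section in these medians was not tested.

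The windows of 4 genes are shown, in lower case with E-box and ETS motifs in capitals. Surf6 and Polr1e are the non-overlapping genes with the largest difference in each direction, and both hold the ETS motif, Surf6 with 4 copies and Polr1e with 1. Of the other non-overlapping genes, Nolc1 holds the ETS motif, Nat10 and Ubtf do not, and Rrs1 has no window. Nop2 holds both motifs, 60 and 38 bases before the start, and Mybbp1a shows an E-box after it. The Surf6 window is chr2:26902838-26903137 on the minus strand, that of Polr1e chr4:45018359-45018658, that of Nop2 chr6:125131633-125131932 and that of Mybbp1a chr11:72441077-72441376, these 3 on the plus strand.
Surf6: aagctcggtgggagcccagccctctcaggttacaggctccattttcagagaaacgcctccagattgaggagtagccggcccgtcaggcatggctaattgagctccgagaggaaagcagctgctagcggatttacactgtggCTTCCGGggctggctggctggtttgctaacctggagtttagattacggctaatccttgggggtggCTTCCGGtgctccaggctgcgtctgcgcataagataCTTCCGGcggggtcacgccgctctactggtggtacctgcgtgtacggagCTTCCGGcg
Polr1e: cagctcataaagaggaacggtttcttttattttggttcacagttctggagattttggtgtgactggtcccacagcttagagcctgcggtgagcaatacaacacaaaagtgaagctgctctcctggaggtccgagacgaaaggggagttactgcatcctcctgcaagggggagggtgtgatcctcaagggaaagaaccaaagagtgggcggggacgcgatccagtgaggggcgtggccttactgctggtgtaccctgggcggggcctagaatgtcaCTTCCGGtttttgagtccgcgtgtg
Nop2: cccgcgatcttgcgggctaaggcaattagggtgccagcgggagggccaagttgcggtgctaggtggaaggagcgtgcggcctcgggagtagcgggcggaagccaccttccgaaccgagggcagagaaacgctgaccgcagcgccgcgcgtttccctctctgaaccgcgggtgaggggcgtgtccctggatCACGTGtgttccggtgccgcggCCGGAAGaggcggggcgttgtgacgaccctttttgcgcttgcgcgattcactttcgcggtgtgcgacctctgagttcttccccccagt
Mybbp1a: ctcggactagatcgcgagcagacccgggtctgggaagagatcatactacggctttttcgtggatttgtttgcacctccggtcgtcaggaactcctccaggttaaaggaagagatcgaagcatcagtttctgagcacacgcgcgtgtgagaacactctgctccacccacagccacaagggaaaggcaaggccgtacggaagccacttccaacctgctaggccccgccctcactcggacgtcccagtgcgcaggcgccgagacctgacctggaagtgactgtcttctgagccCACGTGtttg
A run of letters in these windows describes the sequence only and says nothing of whether a factor was bound in the C2C12 cells.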

How the data were processed

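The members and lists were chosen with earlier results of these data known. Per the labels' protocols, cDNA was made with 33P-labelled dCTP, which gives 1 radioactive signal per spot. The authors deposited scores (z-scores, 2 decimals). Read from the values, each of the 2 sections of 8448 spots has mean 0 and SD 1 on each array. How background was corrected, which log base was used and how scores were made is not given in the sources used here. A second deposited table held equal scores in all 67584 cells.

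Clones were named by gene ID, RefSeq accession or symbol through RefSeq (GRCm38.p6, names and promoter windows only). Of the 37 genes, 34 matched by gene ID, 1 by RefSeq accession and 2 (Rrp12, Nip7) by older symbol. Spots of a clone were averaged. The fit used the scores as deposited, in limma 3.58.1 (R 4.3.3, two-sided, without a block). It was run on simulated data to check that planted differences came back at their mean size. That check does not show the power for differences as small as those of the nucleolar genes. P-values were adjusted over 14064 features by Benjamini-Hochberg. Every gene with a clone is named. Values on every array are given for genes whose groups do not overlap or that differ by at least 2 SE, and for others picked after their values were seen. Alternatives were other normalizations, grid and plate medians removed, the lower 50% or the most frequent values left out, clones averaged, a replicate block and each array left out.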

Additional observations from a re-analysis of the deposited data

How the results depend on the processing

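No nucleolar gene passed the threshold under any of the 11 alternatives (lowest limma adjusted p of these genes 0.672 to 0.998), and over all features the count was 0 except with quantile normalization within each section, which gave 1. With the replicate block 0 features and 0 nucleolar genes passed. The block leaves scores and differences as they were, so the median difference of 0.015 and the 3 genes apart in each direction could not change. Deviations of same-numbered arrays correlated at 0.102 over all features, at 0.392 over the 37 genes and at -0.0411 over these without Mphosph10, and what a replicate number stands for is not labelled. The median difference of 0.015 was 0.00562 with quantile normalization and 0.0075 with source plate medians removed. Over the first section only it was 0.055 and over the second only -0.005, both chosen after seeing the data. Leaving out each array gave 0.005 to 0.025. The 3 genes with both HuR siRNA values above both control values became 6 (16.2%) with quantile normalization (beside 14.9% of all features), with grid medians removed (16.9%) or with source plate medians removed (13.8%), 5 (13.5%) with clones averaged (13.8%) and 0 of 23 when features below the median level were left out (14.2%), which left fewer genes. The 3 genes below became 8 (21.6%) with source plate medians removed (16%), 4 with quantile normalization (14.2%), and 2 with grid medians removed (14.8%), with clones averaged (13.8%) or, of 23, without features below the median level (12.4%). Leaving out features below the median level removed Surf6, Rrs1 and Nat10, which were the 3 genes above, and Polr1e, which was 1 of those below. The count above thus had to fall to 0 under that alternative. Leaving out 1 array gave 11 to 13 above and 5 to 10 below, beside 28.5% to 31.1% of all features, since 3 arrays part more easily. The cause of the other changes was not tested.

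Differences changed sign in 18 of 245 values under the other alternatives, but many of the 245 could not change. The replicate block left every difference as it was. So did leaving out the most frequent values or features below the median level, for the genes that remained. With clones averaged, only the 11 genes with several clones could change. The share of 18 in 245 is therefore no measure of how stable the signs were. With quantile normalization Polr1a was at 0.0006, Bysl at -0.0025 and Bop1 at -0.0038. With grid medians removed Polr1c was at -0.0525, Polr1d at 0.015, Emg1 at 0.0075, Wdr43 at -0.01, Rrp1 at -0.0125 and Pes1 at -0.025. With source plate medians removed Nop58 and Emg1 were at 0.0025, Npm3 at 0.0275, Polr1c at -0.0575, Bysl at -0.02, Nop2 at -0.0225 and Gnl3 at -0.03. With clones averaged Nop58 was at 0.045 and Nip7 at 0.0375. Leaving out each array in turn gave Nop58 from -0.045 to 0.025, Polr1a from -0.06 to 0.04, Polr1c from -0.025 to 0.035, Utp3 from -0.03 to 0.02, Nop2 from -0.08 to 0.12, Wdr12 from -0.05 to 0.1, Gnl3 from -0.055 to 0.115, Nop56 from -0.01 to 0.22, Nhp2 from -0.005 to 0.055, Emg1 from -0.065 to 0.045, Mphosph10 from -0.8 to 0.28, Bop1 from -0.055 to 0.075, Nip7 from -0.05 to 0.01, Npm3 from -0.05 to 0.04, Polr1b from -0.03 to 0.07, Ddx21 from -0.035 to 0.145, Bysl from -0.025 to 0.045, Wdr43 from -0.05 to 0.17 and Rrp1 from -0.03 to 0.06. Of the genes with a difference other than 0, 13 did not change sign under any alternative in which they were measured. Among them were Surf6, Rrs1, Nat10, Polr1e and Ubtf, whose groups did not overlap, so leaving out 1 array could not change their sign. Their sign could change only with quantile normalization, with grid or plate medians removed or, for Polr1e, with clones averaged. The difference came to 0 in 2 of the 13 under 1 alternative each, Nolc1 with clones averaged and Fbl without HuR siRNA replicate 1.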
